A study of Mus musculus with 6 samples.

Results

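The 10 genes described here encode growth factors that the oocyte makes or answers to, and their receptors. The growth factors are Gdf9, Bmp15, Bmp6 and Bmp4. The receptors are Bmpr1a, Bmpr1b, Acvr1, Tgfbr1 and Bmpr2, which bind ligands of the TGF-beta superfamily, and Kit, the receptor of Kit ligand. Every probe on the array whose gene name, or an earlier symbol of it, was one of these was taken, which gave 15 probes of 41174 and 10 gene names of 27597. That rule reads gene names alone.

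RNA was measured on 6 single-colour Agilent arrays, 1 sample per array, from B6C3 F1 mice. There were 2 arrays of climacteric (reproductively aged) blastocysts, 2 of young blastocysts, 1 of climacteric ooplasts and 1 of young ooplasts. A blastocyst is the early embryo with an inner cell mass inside a shell of trophectoderm, and an ooplast is oocyte cytoplasm from which the chromosomes were taken. The labels used here give neither the ages in weeks, nor the number of cells or embryos in a sample, nor how the blastocysts were made, and the replicates are called biological without naming animals. A p-value here therefore covers the variation among these particular samples only.

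GDF9 and BMP15 are secreted by the oocyte and act on the granulosa and cumulus cells around it, through a pair of type I and type II serine/threonine kinase receptors that phosphorylate Smad proteins. BMP4 and BMP6 signal through type I receptors of the same family to Smad1, Smad5 and Smad8, whose targets include the Id genes. KIT is a receptor tyrosine kinase on the oocyte surface that takes up a signal in the reverse direction, from Kit ligand made by granulosa cells, and relays it through phosphatidylinositol 3-kinase.

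The labels were set against marker genes first. All 8 oocyte markers, such as Zp3, a zona pellucida protein gene, were lower in blastocysts, as were 39.0% of all genes tested. Of the 8, 6 entered the stage test described below through the ooplast arrays alone, as did genes of which 96.2% fell. Nothing is read from this count. The summed levels of the 8 were 0.774 to 1.38 times the array's 75th percentile on the blastocyst arrays. They were 3062 on the climacteric and 3155 on the young ooplast array. All 8 blastocyst markers, such as Cdx2, were higher in blastocysts, as were 35.5% of all genes tested. Cdx2, Fabp3, Nanog and Elf5 entered through the blastocyst arrays alone, as did genes of which 69.2% rose, so this count is not read either. Their sums, over all 8, were 1575 to 1886 on the blastocyst arrays against 8.35 on the climacteric and 7.84 on the young ooplast array. Of 12 cumulus and granulosa cell markers 7 were tested, 1 was higher and 4 were lower in blastocysts, and 6 were above background on each ooplast array. Their sum was 11.1 and 15.8 in climacteric blastocysts, 12.8 and 22.4 in young blastocysts, 87.0 in climacteric ooplasts and 432 in young ooplasts. Inha, an inhibin subunit gene, made up 6.95 of the sum in climacteric and 348 in young ooplasts, and without it the sums were 80.02 in climacteric and 84.6 in young ooplasts. Cyp19a1, the aromatase of granulosa cells, stood at 74.6 in climacteric and 78.8 in young ooplasts. Lhcgr and Star were not well above background on any array. Of 8 macrophage markers 4 were tested for stage, and 1 was lower in blastocysts. Their sum was 38.0 and 2.66 in climacteric blastocysts, 2.71 and 2.98 in young blastocysts, 36.3 in climacteric ooplasts and 2.92 in young ooplasts. Lyz2, a lysozyme gene outside the stage test, made up 33.5 of the 38.0, and without it the sums were 4.55 and 2.64 in climacteric blastocysts, 2.69 and 2.91 in young blastocysts, 20.9 in climacteric ooplasts and 2.87 in young ooplasts. Whether cumulus cells or macrophages added to any value below was not tested. In such bulk samples, a change in the number of cells and a change of RNA per cell cannot be told apart.

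Levels are given as log2 of the processed signal minus the array's 75th percentile, so that 0 is a spot at that percentile. That percentile was 1064 and 851.8 units on the climacteric and 721.2 and 1111 on the young blastocyst arrays. It was 237.8 on the climacteric and 235.5 on the young ooplast array. Folds between the stages are therefore those of scaled levels, not of the processed signal. Levels set arrays against each other for 1 probe and are not compared between probes. A probe is called well above background where the scanner software flagged it so. A gene entered the stage test if its probe was well above background on all blastocyst arrays or on both ooplast arrays.

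Between the stages, 8 of the 10 genes fell in blastocysts relative to ooplasts, Bmpr1a rose, and Bmp4 did not pass the threshold (limma, Benjamini-Hochberg adjusted p under 0.05, all 6 arrays with age as a term). The background was high, since 74.5% of the 15604 genes tested passed, 35.5% as higher and 39.0% as lower. The median difference over all genes tested was -0.26. How a gene entered the test mattered. Of the 10, 5 were well above background on all 6 arrays (Gdf9, Bmpr1a, Bmpr2, Acvr1 and Tgfbr1), and of all 10755 such genes 43.4% fell and 28.9% rose. Another 4 (Bmp15, Bmp6, Bmpr1b and Kit) entered through the ooplast arrays alone, as did genes of which 96.2% fell, so nothing is read from the count of these 4. Bmp4 entered through the blastocyst arrays alone, as did genes of which 69.2% rose. For the 8 genes that fell, all 4 blastocyst arrays lay below both ooplast arrays, which held for 42.5% of all genes tested, and for Bmpr1a all 4 lay above both, which held for 37.0%. Genes that had passed were likely to be separated in this way, so nothing is read from these shares. The falls of Acvr1, Tgfbr1 and the brightest Bmpr2 probe rest on the scaling, as given below.

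**Figure D1:**
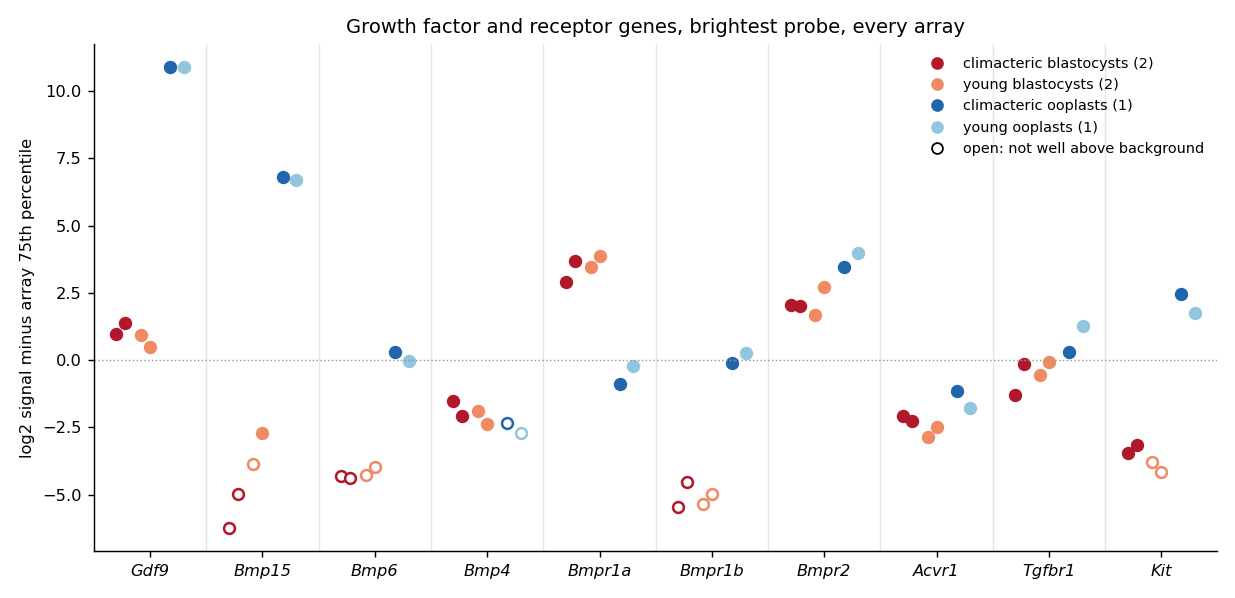
Level of each gene's brightest probe on every array (log2 of the processed signal minus the array's 75th percentile, a log scale), with blastocyst arrays left of ooplast arrays. Points are single arrays and open points were not well above background. Gdf9 and Bmp15 stand far higher in ooplasts, Bmpr1a stands higher in blastocysts, and the Bmp4 points of the stages overlap.

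Gdf9, whose product the oocyte secretes and which growing follicles need to pass the primary stage, was measured by 1 probe at chr11:53281228-53281287 (mm8). Its level was 0.97 and 1.38 in climacteric blastocysts, 0.91 and 0.47 in young blastocysts, 10.89 in climacteric ooplasts and 10.89 in young ooplasts. The processed signal behind these was 2080 and 2210 units in climacteric blastocysts, 1358 and 1542 in young blastocysts, 451274 in climacteric ooplasts and 445920 in young ooplasts, with no spot saturated. The ooplast arrays were nearly equal and far above every blastocyst array, and the probe stayed well above background in all 4 blastocyst samples. The stage difference was -9.96 ± 0.29 (SE, adjusted p = 6.98e-06), a 994-fold lower scaled level in blastocysts, and -9.95 within the slide that held both stages. The processed signals themselves lay less far apart, since the percentile subtracted was higher on the blastocyst arrays. Quantile normalization gave -8.76 and the authors' deposited table gave -8.73.

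Bmp15, the X-linked partner of Gdf9, was measured at chrX:5489908-5489967. Its level was -6.24 and -4.99 in climacteric blastocysts, -3.85 and -2.69 in young blastocysts, 6.79 in climacteric ooplasts and 6.69 in young ooplasts. Of the blastocyst arrays, replicate 2 of the young group alone had it well above background, at 172 units against 14.1 to 50.01 units on the other blastocyst arrays. Bmp15 was thus high in both ooplast samples, and its order among the blastocyst samples rests mostly on spots at background. The fitted stage difference was -11.18 ± 0.68 (SE, adjusted p = 2.65e-05), which includes these spots at background and is no measured size. Against both ooplast arrays the climacteric blastocysts, with neither array above background, were at least 1569-fold lower on the scale used here. The fitted value was -12.41 without the young ooplast array, -9.96 without the climacteric ooplast array, -11.78 within the slide of both stages and -8.91 with normexp background correction, which adds an offset to dim spots. Quantile normalization gave -10.56 and the authors' deposited table -10.48.

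Promoter windows of 250 bases before to 50 bases after the annotated start were taken from RefSeq (GRCm38.p6) for 9 of the 10 genes, all but Gdf9, 13 windows in all. Because oocyte homeobox and basic helix-loop-helix proteins act on Gdf9 and Bmp15, both strands were searched for TAATTA and TAATTG, the letters bound by NOBOX, and for CANNTG, the E-box bound by FIGLA and SOHLH proteins. Shown first are the only windows of these 13 that held TAATTA or TAATTG, those of Bmp15 and Bmpr1b, and then that of Bmpr1a, the gene that rose in blastocysts. Each is written 5′ to 3′ on the gene's own strand, with the 3 motifs in capitals.
Bmp15, chrX:6320675-6320974, minus strand: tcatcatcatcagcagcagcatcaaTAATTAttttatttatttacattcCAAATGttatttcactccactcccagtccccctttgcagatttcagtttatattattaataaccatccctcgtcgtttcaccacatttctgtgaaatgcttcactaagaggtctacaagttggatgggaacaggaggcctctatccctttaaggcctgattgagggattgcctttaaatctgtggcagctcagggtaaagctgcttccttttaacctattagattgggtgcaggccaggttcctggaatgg
Bmpr1b, chr3:141982215-141982514, minus strand: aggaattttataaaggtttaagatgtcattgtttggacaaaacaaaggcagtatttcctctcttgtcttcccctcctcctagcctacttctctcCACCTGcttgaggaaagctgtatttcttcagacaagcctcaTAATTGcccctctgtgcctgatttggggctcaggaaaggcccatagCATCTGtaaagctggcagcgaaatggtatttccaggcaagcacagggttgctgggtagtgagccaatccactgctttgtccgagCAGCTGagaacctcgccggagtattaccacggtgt
Bmpr1a, chr14:34502497-34502796, minus strand: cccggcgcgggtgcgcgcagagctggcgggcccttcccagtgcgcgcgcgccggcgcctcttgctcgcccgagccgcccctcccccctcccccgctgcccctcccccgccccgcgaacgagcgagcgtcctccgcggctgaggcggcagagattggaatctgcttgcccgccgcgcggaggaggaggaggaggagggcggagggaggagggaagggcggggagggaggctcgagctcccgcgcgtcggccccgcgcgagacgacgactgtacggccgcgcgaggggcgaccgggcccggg
TAATTA began 225 bases before the start in Bmp15, and TAATTG 115 bases before it in 1 of the 3 windows of Bmpr1b. Of all 32851 windows, 5.29% held TAATTA, 8.0% held TAATTG and 12.4% held either, against 2 of the 13 windows of these genes. An E-box lay in 8 of the 13 windows and in 72.3% of all windows. The Bmp15 window was 41.7% G or C with 2 CG pairs, and that of Bmpr1a was 79.3% G or C with 48 CG pairs, more than 98.8% of all windows. The Kit windows had 20 and 21 CG pairs, and those of Acvr1 and Bmp6 had 51 and 27, so genes that fell lay on both sides of the median of 7 pairs. A match in these letters is no measured binding site.

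Bmp6, another BMP that mouse oocytes make, had 2 probes. The one with the higher mean over all 6 arrays, a ranking that includes blastocyst spots at background, lay at chr13:38507076-38507135. It gave -4.29 and -4.38 in climacteric blastocysts, -4.28 and -3.98 in young blastocysts, 0.28 in climacteric ooplasts and -0.03 in young ooplasts. It was well above background on both ooplast arrays and on no blastocyst array, so only a bound can be given. On the scale used here the probe was at least 14.3-fold lower in blastocysts (adjusted p = 2.55e-05). The fitted difference was -4.36, and -2.74 with normexp, a size below that bound. The second probe, whose ends lie 15144 bases apart on mm8 (chr13:38477222-38492365), showed the same pattern and was at least 16.2-fold lower. With normexp it differed by -3.34, again a size below its bound. Each bound sets the bright group's mean against the lowest signal that was still well above background on each dim array. All bounds in this text hold on the scale used here, and normexp can give a smaller size.

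Bmp4, a BMP known to be expressed by the inner cell mass, was read from 10 spots of 1 probe at chr14:45306004-45306063. Its level was -1.54 and -2.09 in climacteric blastocysts, -1.90 and -2.38 in young blastocysts, -2.35 in climacteric ooplasts and -2.71 in young ooplasts. The lowest blastocyst array, replicate 2 of the young group, lay just under the climacteric ooplast array, so the stages overlapped after scaling. The processed signal was 366 and 200 units in climacteric and 194 and 213 in young blastocysts. In ooplasts it was 46.7 in the climacteric and 35.9 in the young sample, so the stages did not overlap before scaling. All 10 spots were well above background on each blastocyst array, against 1 of 10 on the climacteric and 0 of 10 on the young ooplast array. Bmp4 differed by 0.55 ± 0.29 (SE, adjusted p = 0.129). The difference depended on the scaling. It was 0.87 with quantile normalization (adjusted p = 0.0366), 0.93 in the authors' deposited table (adjusted p = 0.0285), 0.81 with the replicate number, which is also the slide, as a block (adjusted p = 0.0487), and -0.35 with normexp (adjusted p = 0.202).

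Bmpr1a encodes the type I receptor ALK3, which binds BMP2 and BMP4 and which early embryos need for gastrulation. Its brighter probe, at chr14:33240245-33240304, gave 2.91 and 3.68 in climacteric blastocysts, 3.47 and 3.86 in young blastocysts, -0.89 in climacteric ooplasts and -0.21 in young ooplasts. All 4 blastocyst arrays stood above both ooplast arrays, and every array was well above background. The stage difference was 4.03 ± 0.32 (SE, adjusted p = 6.86e-05), a 16.3-fold higher scaled level in blastocysts, and it lay between 3.84 and 4.18 with any 1 array left out. The other probe, at chr14:33243596-33243655, was not well above background on any array and gave no reading of the gene.

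Bmpr1b encodes the type I receptor ALK6, through which BMP15 acts on granulosa cells. Its probe, at chr3:141775117-141775176, gave -5.45 and -4.52 in climacteric blastocysts, -5.35 and -4.99 in young blastocysts, -0.11 in climacteric ooplasts and 0.27 in young ooplasts. Neither ooplast array overlapped the blastocyst arrays, none of which had the probe well above background. The gene was at least 13.8-fold lower in blastocysts on the scale used here (adjusted p = 3.98e-05), with a fitted difference of -5.16. With normexp the difference was -2.78, a size below that bound. Bmpr1a and Bmpr1b, closely related type I receptors, therefore differed in opposite directions between the stages.

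Tgfbr1 encodes ALK5, the type I receptor used by TGF-beta and GDF9. Its brighter probe, at chr4:47435649-47435708, gave -1.31 and -0.13 in climacteric blastocysts, -0.57 and -0.06 in young blastocysts, 0.31 in climacteric ooplasts and 1.25 in young ooplasts. The groups did not overlap, and the climacteric ooplast array lay closer to 3 of the blastocyst arrays than to the young ooplast array. Its processed signal was 428 and 777 units in climacteric and 486 and 1065 in young blastocysts. In ooplasts it was 295 in the climacteric and 561 in the young sample. The stages thus overlapped before scaling, and the fall rests on it. Blastocysts differed from ooplasts by -1.30 ± 0.41 (SE, adjusted p = 0.0253). It did not pass without the young ooplast array (-1.03, adjusted p = 0.172), without the climacteric ooplast array (-1.57, adjusted p = 0.0657), without replicate 1 of the young blastocysts (-1.15, adjusted p = 0.0577), within the climacteric arrays alone (adjusted p = 0.180) or without replicate 1 of the climacteric blastocysts (-1.09, adjusted p = 0.0545). The second probe, with ends 3659 bases apart at chr4:47428126-47431784, was not well above background on any array.

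Acvr1 encodes ALK2, a type I receptor for BMP6 and BMP7. Its probe, at chr2:58262571-58262630, gave -2.09 and -2.26 in climacteric blastocysts, -2.84 and -2.50 in young blastocysts, -1.14 in climacteric ooplasts and -1.78 in young ooplasts. Every blastocyst array was below both ooplast arrays by a small margin after scaling. The processed signal was at least 178 units on both climacteric blastocyst arrays, and 100.5 and 196 in young blastocysts. In ooplasts it was 108 in the climacteric and 68.7 in the young sample. Before scaling, replicate 1 of the young blastocysts thus lay between the ooplast arrays and the other blastocyst arrays lay above both. The fall of Acvr1 therefore rests on the scaling. Between the stages the level differed by -0.96 ± 0.25 (SE, adjusted p = 0.0126), a 1.95-fold lower scaled level. It did not pass without the young ooplast array (-1.03, adjusted p = 0.0529), without the climacteric ooplast array (-0.90, adjusted p = 0.0821), within the slide of both stages (-1.01, adjusted p = 0.0658), or within the climacteric (adjusted p = 0.0677) or the young arrays alone (adjusted p = 0.122).

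Bmpr2 encodes the type II receptor that GDF9, BMP15 and other BMPs share, and had 3 probes on chromosome 1. The brightest, at chr1:59821964-59822023, gave 2.03 and 2.02 in climacteric blastocysts, 1.66 and 2.71 in young blastocysts, 3.46 in climacteric ooplasts and 3.98 in young ooplasts. Its stage difference was -1.61 ± 0.35 (SE, adjusted p = 0.00621), which did not pass without the young ooplast array (-1.44, adjusted p = 0.0558) or within the young arrays alone (-1.79, adjusted p = 0.0503). The probe that starts at 59814978 gave -2.26 (adjusted p = 0.0148) and the one that starts at 59819627 gave -3.41 (adjusted p = 0.0116) in a fit of all probes. All 3 probes were lower in blastocysts after scaling, by fitted amounts from 3.06-fold to 10.7-fold. The probe at 10.7-fold was above background on 3 of the 4 blastocyst arrays and entered through the ooplasts alone, so that is no measured size. The brightest probe's processed signal was 4342 and 3455 units in climacteric and 2285 and 7282 in young blastocysts. In ooplasts it was 2620 in the climacteric and 3717 in the young sample, so its fall rests on the scaling. The stages of the other probes also overlapped before scaling. The one that starts at 59814978 read 317 and 804 units in climacteric and 822 and 533 in young blastocysts. In ooplasts it read 391 in the climacteric and 1286 in the young sample. The one that starts at 59819627 read 555 units in climacteric and 229 in young ooplasts. Replicate 1 of the young (246) and replicate 2 of the climacteric blastocysts lay above the 229, and the others below.

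Kit was read from 10 spots of 1 probe at chr5:75937959-75938018. Its level was -3.44 and -3.17 in climacteric blastocysts, -3.78 and -4.18 in young blastocysts, 2.45 in climacteric ooplasts and 1.74 in young ooplasts. The stages did not overlap, and the blastocyst groups did not overlap either. The fitted stage difference was -5.74 ± 0.26 (SE, adjusted p = 1.29e-05), and -4.09 with normexp. With neither young array above background, young blastocysts were at least 50.01-fold lower than ooplasts on the scale used here, a size that normexp does not reach. Of its 10 spots, 9 and 9 were well above background on the climacteric blastocyst arrays, against 1 and 0 on the young blastocyst arrays. On the ooplast arrays all 10 were.

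**Figure D2:**
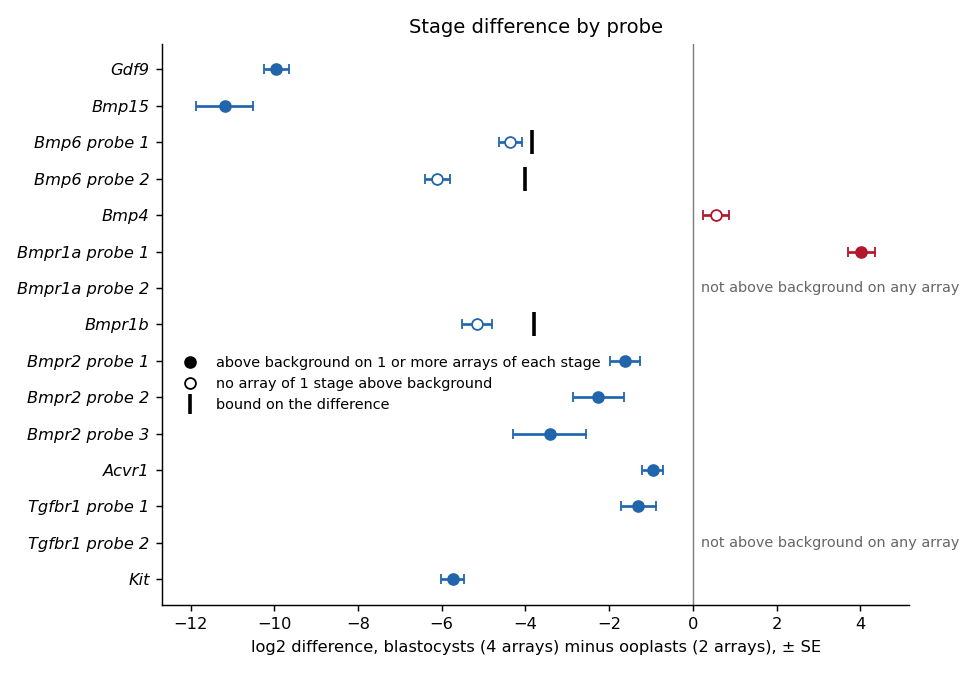
Stage difference of every probe (log2, blastocysts minus ooplasts, 4 against 2 arrays) with its standard error from the fit of all probes. Open points have no array of 1 stage above background and a black tick gives the bound where the difference passed. Bmpr1a probe 1 lies at 4.03, all 3 Bmpr2 probes lie below 0, and 2 probes had no reading.

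Age was compared within the blastocysts, 2 climacteric against 2 young arrays. No gene of 15971 passed the threshold in this comparison (limma, 0%), and 864 genes (5.41%) had an unadjusted p under 0.05. Of the 10 genes, 7 were tested, none passed, and none had an unadjusted p under 0.05. Bmp15, Bmp6 and Bmpr1b were not tested because neither blastocyst group had them well above background on both arrays. Both climacteric arrays lay above both young ones for Gdf9, Acvr1 and Kit and overlapped for the other 4 tested, and groups without overlap made up 30.0% of all genes tested, 16.2% with the climacteric and 13.8% with the young arrays higher. Kit entered this test through the climacteric arrays alone, and of the genes that did so 41.2% had both climacteric arrays above both young ones.

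For Kit, admitted through the group in which it was higher, the fitted difference between climacteric and young blastocysts was 0.68 (95% interval -0.11 to 1.46, unadjusted p = 0.0791 in the limma fit, adjusted p = 1.00), by 0.34 on slide 1 and 1.01 on slide 2. Neither young array had it above background, so this is no measured size and nothing is read from its p-value. Acvr1 differed by 0.50 (95% interval -0.26 to 1.25) and Gdf9 by 0.48 (95% interval -0.36 to 1.32). For Gdf9 the difference was 0.05 on slide 1 and 0.90 on slide 2, so slide 2 carried most of it.

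Bmp4 differed by 0.32 (95% interval -0.58 to 1.23) between climacteric and young blastocysts. Tgfbr1 differed by -0.41 (95% interval -1.64 to 0.82), Bmpr1a by -0.37 (95% interval -1.33 to 0.60) and Bmpr2 by -0.16 (95% interval -1.24 to 0.92). These intervals include 0 and changes of more than 2-fold in at least 1 direction for each of the 4, so neither a change nor its absence was shown. Without replicate 1 of the climacteric blastocysts Bmpr1a differed by 0.01 and Tgfbr1 by 0.18, and without replicate 2 of the young blastocysts Bmpr2 differed by 0.36, each in the other direction.

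**Figure D3:**
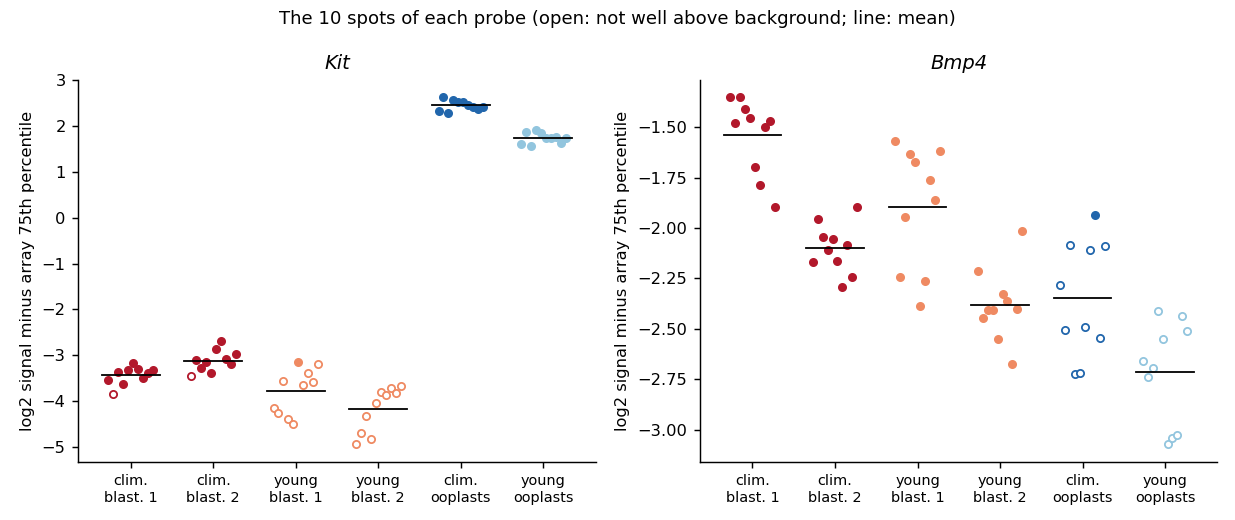
The 10 spots of the Kit and Bmp4 probes on each array (log2 of the processed signal minus the array's 75th percentile), filled where well above background, with the mean as a line. For Kit 9 spots are filled on each climacteric blastocyst array, against 1 and 0 on the young ones. For Bmp4 the blastocyst spots are filled throughout and overlap the ooplast spots in level.

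In ooplasts there was 1 array per age, so values are given without a test. Of 12289 genes measured on both arrays, 17.2% were at least 2-fold apart, 7.36% with the climacteric and 9.86% with the young array higher. Of the 10 genes 9 were measured, and none was 2-fold apart by the probe with the highest mean over all 6 arrays, with differences from -0.94 for Tgfbr1 to 0.71 for Kit. Gdf9 differed by 0.0028 and Bmp15 by 0.11, close to equal on the climacteric and the young array. The median over all genes measured was 0.15.

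The remaining probes gave other values, and 3 of them were over 2-fold apart. The second Bmp6 probe read -0.25 in climacteric and 0.86 in young ooplasts, a difference of -1.11, whereas the probe that stood for Bmp6 above differed by 0.31. For Bmpr2 the probe that starts at 59814978 read 0.72 in climacteric and 2.45 in young ooplasts, a difference of -1.73. The Bmpr2 probe that starts at 59819627 read 1.22 in climacteric and -0.04 in young ooplasts, a difference of 1.27. The probes of 1 gene thus disagreed in direction between these 2 samples, and no direction of Bmpr2 or Bmp6 with age can be taken from them.

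The age difference in blastocysts was set against that in ooplasts in a fit of all 4 groups. Since each ooplast age is 1 array, the spread in this fit comes from the blastocysts alone, and the ooplast samples are assumed to vary like them. Among all 15604 genes 0.852% passed, and none of the 10 did. At an unadjusted p under 0.05 the shares were 7.81% of all genes and none of the 10. Bmp15 had the lowest adjusted p-value (0.667), with a difference of -2.45 (95% interval -5.03 to 0.14), and its blastocyst values lay at background on 3 of 4 arrays. For Kit the age difference was 0.68 in blastocysts and 0.71 in ooplasts, and the difference of these was -0.04 (95% interval -1.40 to 1.33).

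**Figure D4:**
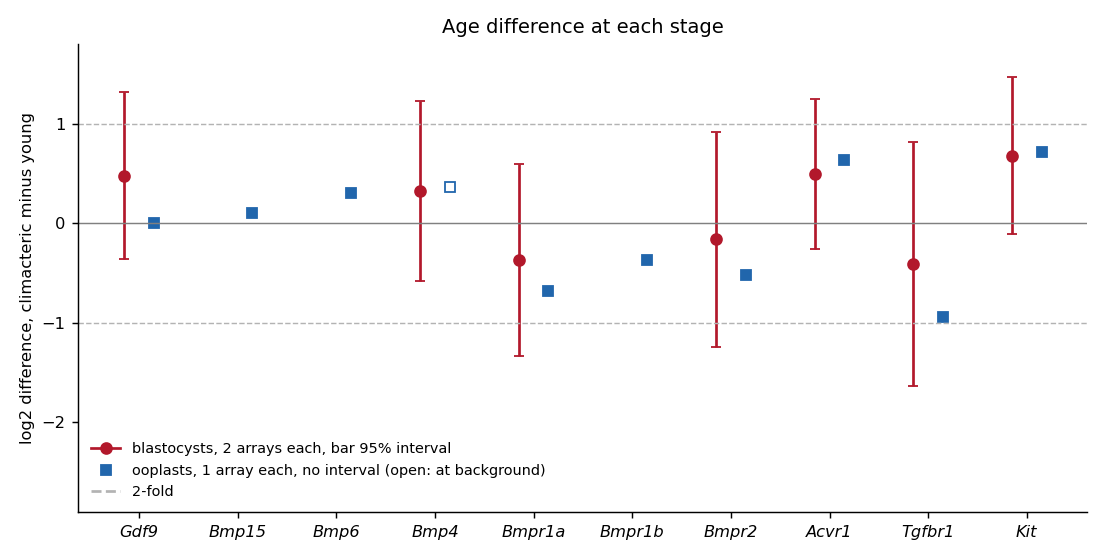
Age difference (log2, climacteric minus young) of each gene in blastocysts, as circles with 95% intervals, and in ooplasts, as squares without an interval because each age had 1 array. Dashed lines mark 2-fold. Every blastocyst interval drawn includes 0, and no filled ooplast square passes the 2-fold lines.

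The other genes of the same pathways were described in lists of ligands, receptors, Smads, inhibitors, convertases, targets, the Kit relay and transcription factors. Over all genes tested for stage 39.0% fell and 35.5% rose. Where genes entered through the ooplast arrays alone 96.2% fell, and through the blastocyst arrays alone 69.2% rose. Of the other ligands of the superfamily 12 of 17 were tested for stage, and 7 fell, 2 rose and 3 did not pass, with a median of -2.31 against -0.26 over all genes. Of the 7, 3 (Tgfb2, Bmp5 and Inhba) entered through the ooplast arrays alone, so nothing is read from their count. Tgfb2 had a fitted fall of 10.89 on the log2 scale (SE 0.90), with levels of -0.80 and -1.79 in climacteric blastocysts, -1.42 and -4.63 in young blastocysts, 8.92 in climacteric ooplasts and 8.53 in young ooplasts. Tgfb2 was above background on 3 of the 4 blastocyst arrays. Bmp5, above background on 2 of them, fell by 8.49 (SE 1.02) and Tgfb3 by 7.21 (SE 0.46). The values of Tgfb2 and Bmp5 include spots at background and are no measured sizes. Bmp5 also stood apart with age in ooplasts, at 3.73 in the climacteric and 7.26 in the young sample, as did Inha, at 2.80 in the climacteric and 8.44 in the young sample.

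Of the other receptors 5 of 8 were tested, and 2 rose, 2 fell and 1 did not pass. Amhr2, the type II receptor of anti-Muellerian hormone, rose by 5.52 (SE 0.36) and is also on the list of cumulus and granulosa markers. It was above background on 1 of the 2 ooplast arrays, so this fitted value is no measured size. Acvr2a, a type II activin receptor, was at least 3.15-fold higher in blastocysts. Acvr2b, its close relative, was lower by -1.53 (SE 0.34), a call that did not pass without the young ooplast array (adjusted p = 0.0719) or within the slide of both stages (adjusted p = 0.0540). The fall of Acvr2b was also smaller than the gap between the percentiles subtracted at the stages, so it rests on the scaling. The median of these 5 receptors was 0.02. Its sign turned with the scaling, from -0.50 with normexp to 0.24 in the authors' deposited table.

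Of the Smads and their partners 11 of 12 were tested, and 6 fell, 2 rose and 3 did not pass (median -1.07). Smad3, which relays TGF-beta, activin and GDF9 signals, had a fitted difference of -5.14 (SE 0.44), and Smad1, which relays BMP signals, had one of -3.50 (SE 0.61). Both were above background on 3 of the 4 blastocyst arrays and entered through the ooplast arrays alone, as did genes of which 96.2% fell. Neither value is therefore a measured size. Skil, a repressor of Smad activity, rose by 2.68 (SE 0.36). The common partner Smad4 had a difference of 0.32 (SE 0.25, adjusted p = 0.280), which did not pass.

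Of the inhibitors outside the cell and in its membrane 7 of 11 were tested, and 3 rose, 3 fell and 1 did not pass (median -0.43). Bambi, a pseudoreceptor that blocks type I receptors, was at least 6.91-fold higher in blastocysts and Nbl1, a secreted BMP antagonist, rose by 1.62 (SE 0.37), a call that was lost with the young ooplast array left out (adjusted p = 0.0567). Fstl1, a secreted follistatin-like protein, was at least 12.7-fold lower. Among the 3 convertases, which cut the precursors of these ligands, Furin had a difference of -3.12 (SE 0.30), Pcsk5 was at least 20.2-fold lower, and Pcsk6 rose by 3.18 (SE 0.25).

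Of the Id genes, which BMP signals induce, 3 of 4 were tested. Id2 was at least 518-fold higher in blastocysts, at 6.37 and 7.00 in climacteric and 7.07 and 7.06 in young blastocysts, and was not above background in either ooplast sample. Id3 fell by 1.33 (SE 0.28). Id1 had a difference of -0.95 (SE 0.31, adjusted p = 0.0307), which did not pass under quantile normalization (adjusted p = 0.0575), in the authors' deposited table (adjusted p = 0.0689), within slide 1 (adjusted p = 0.182), or without either ooplast array, replicate 1 or 2 of the young blastocysts or replicate 2 of the climacteric ones (adjusted p from 0.0555 to 0.217). The percentile subtracted was higher on every blastocyst array than on either ooplast array, by more than the falls of Id3 and Id1. These falls therefore rest on the scaling, and the Id genes differed in direction among themselves after scaling only.

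Of the Kit ligand and relay genes 14 of 15 were tested, and 6 rose, 5 fell and 3 did not pass (median 0.67). Kitl itself was not well above background on any array. Pik3ca, a catalytic subunit of phosphatidylinositol 3-kinase, had a difference of -4.82 (SE 0.42) and Pdpk1, the kinase that activates AKT, one of -3.64 (SE 0.46). Tsc1, a subunit of the complex that restrains mTOR, was at least 12.6-fold higher in blastocysts.

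Of 6 transcription factors known to act on Gdf9 and Bmp15, 5 were on the array under these names and 4 were tested, and all 4 fell (median -5.63, or -5.16 with Nobox at its bound). Lhx8 and Nobox entered through the ooplast arrays alone, as did genes of which 96.2% fell. Lhx8, an oocyte homeobox gene, had a fitted difference of -10.73 (SE 0.83) with 1 blastocyst array above background, and was at least 928-fold lower in young blastocysts, where neither array was. Nobox, whose product is known to bind TAATTA and TAATTG, was at least 173-fold lower in blastocysts. Nr6a1, a nuclear receptor, had a difference of -2.89 (SE 0.26). No gene of these 8 lists passed for age in blastocysts.

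**Figure D5:**
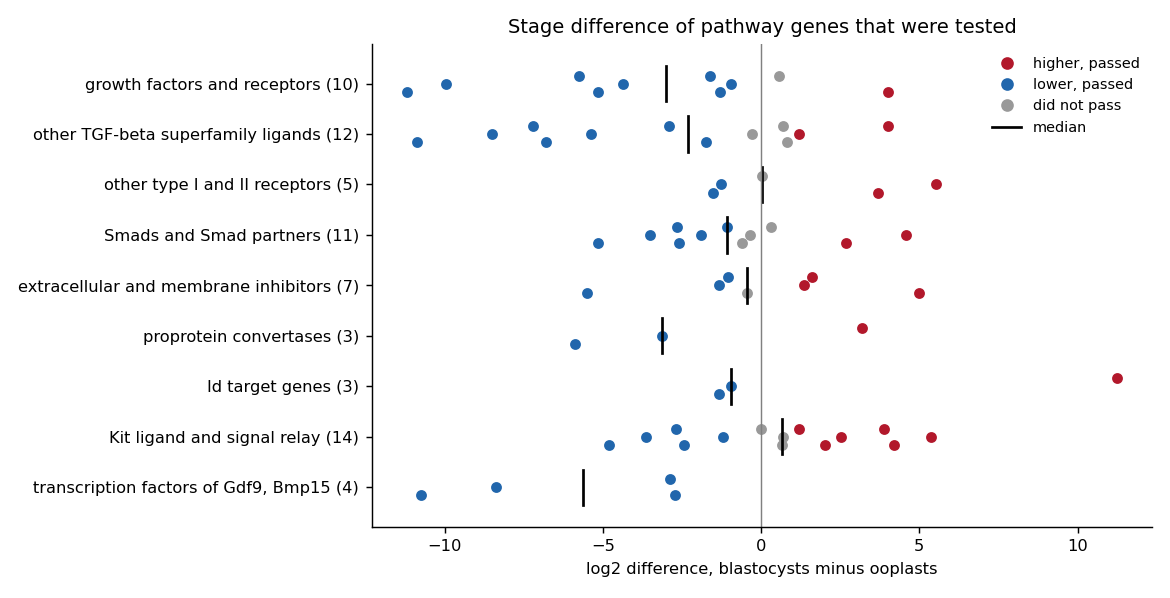
Stage difference (log2, blastocysts minus ooplasts) of the 10 genes and of each pathway list, 1 point per tested gene, coloured by whether it passed as higher or lower, with the list's median as a black line. Transcription factors of Gdf9 and Bmp15 all lie below 0, and the Kit relay, receptors and inhibitors lie on both sides. Points of genes at background in 1 stage are fitted values, not bounds.

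The genes whose profile over the 6 arrays lay nearest to that of Gdf9, by the root mean square of the difference after centring each profile, were Antxr2 (0.416), Fbxw27 (0.460) and Oas1d (0.471), among 9025 genes also above background on every array. For Bmp15 they were Mfsd13b (0.606), Slco3a1 (0.946) and Pramel27 (0.986) among 49 genes with the same arrays above background. For Kit they were Pfdn4 (0.301), Tbc1d8 (0.357) and Slc24a3 (0.359) among 68 such genes. These profiles are dominated by the stage difference, which was -9.49 in Antxr2 and -5.73 in Pfdn4.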

How the data were processed

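Total RNA was amplified and labelled with Cy3, per the labels' protocols. Per the file headers, spot intensity (the processed signal) was extracted with Agilent Feature Extraction, background-subtracted and not scaled between arrays, and probes were placed on mm8. The submitters' processing notes give version 9.5. The value table that the authors deposited is in log2, and its columns were set against the scanner signals and matched a quantile normalization of them in scale and direction. The medians of its 6 columns over non-control spots were 6.36 to 6.40.

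Each spot's processed signal was taken to log2, and the 75th percentile over the array's 43379 non-control spots was subtracted. Spots of a probe were averaged without those marked as outliers, and a probe with 10 spots counted as above background if more than 5 were. The probe with the highest mean of those that entered a test stood for its gene. Names came from a RefSeq table (GRCm38.p6, names and promoter windows), and 15 probes matched the 10 genes. Coordinates of probes are those of the files, so exons and UTRs are not given. Of the spots, 42.2% and 42.4% were well above background on the climacteric and young ooplast arrays and 49.9% to 57.3% on the blastocyst arrays. Depth does not apply to arrays, and their number limits the precision.

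Differences were tested two-sided with limma 3.58.1 (R 4.3.3), with p-values adjusted over all genes by Benjamini-Hochberg and a threshold of 0.05. On simulated data the stage test recovered 4% of 2-fold and 68% of 4-fold changes. The test of age in blastocysts recovered 0% of 2-fold and 64% of 4-fold changes. For the difference of the age effects 0% were recovered at 4-fold and 8% at 8-fold, so smaller changes would mostly be missed. Genes named beyond the 10 were, per list, up to 3 with the largest stage difference past the threshold (bounds at their bound), and the 3 nearest profiles of Gdf9, Bmp15 and Kit. Smad4, Kitl, Inha, Lyz2, Cyp19a1, marker examples and the members of lists that did not pass were chosen after their values were seen. Members and lists were chosen with earlier results of these data known. Both ooplast arrays shared slide 1 with replicate 1 of each blastocyst group, and replicate 2 of each was on slide 2. Deviations of equally numbered blastocyst arrays correlated at 0.167 over 2 pairs, too few to show pairing. Alternatives were other scalings, normexp with offset 50, the authors' table, other filters, all probes, each array left out, the replicate block, 1 slide or 1 age alone, and no age term.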

Additional observations from a re-analysis of the deposited data

How the results depend on the processing

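For stage, 8 of the 10 genes were lower and 1 higher, and 2 were higher under quantile normalization, in the authors' table and with the replicate block, since Bmp4 then passed. Requiring every array well above background left 4 lower. With 1 array left out, 5 to 8 were lower, the fewest without the young ooplast array. The Bmp4 stage difference turned to -0.35 with normexp. The count of all genes past the threshold was 19945 with no filter on dim probes against 11620, and other scalings moved the median of all genes between -0.45 and -0.14. The replicate block changed no other call of a member for stage, age or the difference of the age effects.

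For age in blastocysts no gene passed, and with 1 array left out Bmpr1a ranged from -0.75 to 0.014, Tgfbr1 from -0.999 to 0.18 and Bmpr2 from -0.69 to 0.36. For the difference of the age effects 133 genes passed, against 26 under quantile normalization, 0 in the authors' table and 0 to 161 with 1 blastocyst array left out, the 0 without either climacteric blastocyst array. Bmp4 turned there to 0.066 under quantile normalization, 0.028 with normexp and 0.073 in the authors' table, and Bmpr1a to -0.0071 with normexp. With 1 array left out Bmp4 ranged from -0.32 to 0.23, Bmpr1a from -0.069 to 0.69, Bmpr2 from -0.17 to 0.88, Acvr1 from -0.31 to 0.034, Tgfbr1 from -0.056 to 1.13 and Kit from -0.23 to 0.16. In ooplasts 2117 genes were 2-fold apart, against 1347 with normexp and 4631 with no filter on dim probes, which tests more genes. The other causes were not tested. Signals near background limit Bmp15, Bmp6, Bmpr1b and Kit in blastocysts and Bmp4 in ooplasts.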
